A study of Mus musculus with 25 samples.

Results

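Neurons and astrocytes sorted from the brains of hMAPT-P301S mice were compared gene by gene. The members are the libraries labelled hMAPT-P301S neuron (6) and hMAPT-P301S astrocyte (5), chosen by those labels alone, and they make up 11 of the 25 libraries in the series. Every mouse behind these 11 libraries was 6 months old and carried the human MAPT transgene with the P301S change, so the transgene is shared by both groups and is not what the comparison varies. Neurons were taken as NeuN+ cells and astrocytes as Gfap+ cells by flow cytometry, and Cd11b+ myeloid cells were a further gate that is not analysed here. Neurons were pelleted at 2600 rcf and astrocytes at 6600 rcf for 7 min, and the labels give a typical RNA yield of 200 to 300 ng for neurons and 2 to 5 ng for astrocytes. The other 14 libraries, 8 of neurons and 6 of astrocytes, came from non-transgenic (non-Tg) littermates of the same age and serve below as a side-by-side contrast. The labels do not give the promoter that drives the transgene, and they do not say whether a library came from 1 mouse or a pool or which neuron and astrocyte libraries share a mouse. P-values therefore measure the spread between these libraries, part of which may be technical, and the test fits 1 spread per gene to both groups. The mean squared difference per gene between 2 libraries, in units of counting variance, was 37.8 to 70.5 for astrocyte pairs and 2.92 to 11.3 for neuron pairs. That measure also grows with library totals. Pellet force and typical RNA yield differed between the cell types throughout, so neither can be told apart from cell type.

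Neurons signal through action potentials carried by voltage-gated sodium, calcium and potassium channels, release transmitter from synaptic vesicles, and sense it with glutamate and GABA receptors. Astrocytes take up glutamate, GABA and potassium around synapses, line blood vessels with endfeet rich in the water channel aquaporin-4, supply lipoproteins and glutamine, and enter reactive states marked by glial fibrillary acidic protein when the tissue is injured. Tau, the product of Mapt, binds axonal microtubules, and the P301S change makes it prone to aggregate in neurons.

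Library totals ran from 1544959 to 2331641 counts in neurons and from 2497847 to 3712261 in astrocytes, over 36528 gene identifiers. Reduced to 1000000 counts each, neuron libraries held 17811 to 18479 detected genes and astrocyte libraries 11944 to 16330 (exact 2-sided permutation test, adjusted p = 0.00794 over 11 measures, where 0.00433 is the smallest unadjusted p the design allows). Genes encoded by mitochondrial DNA took 1.12 to 2.43% of counts in neurons and 3.61 to 11.4% in astrocytes (adjusted p = 0.00794, same exact test). The summed level of 11 oligodendrocyte markers was 69.7 to 83.3 CPM (counts per 1000000, scaled between libraries so that they need not sum to 1000000) in neurons and 397.8 to 1274 CPM in astrocytes (adjusted p = 0.00794, same exact test), and that of 13 microglial markers was 84.9 to 427.8 CPM and 115.3 to 269.5 CPM (adjusted p = 0.931, same exact test). The summed level of 10 endothelial markers was 8.3 to 16.3 CPM in neurons and 4.97 to 40.1 CPM in astrocytes (adjusted p = 0.41, same exact test), where Cldn5 and Esam had no count. Ependymal markers summed to 6.91 to 16 CPM in neurons, with none of Foxj1, and to 15 to 106 CPM in astrocytes (adjusted p = 0.0272, same exact test). Neuron library 1 stood apart by its microglial sum, astrocyte library 4 by its share of counts in Malat1 (39.3%) and astrocyte library 3 by Pdgfra, a marker of oligodendrocyte precursors, at 57.7 CPM against at most 4.74 CPM in the other astrocyte libraries. Neuron libraries 2 and 6 held transcripts of pancreatic genes (1929 and 1515 counts of Ins1, insulin, which had 0 in the other 9). Leaving out both libraries reduced the called genes described next from 4925 to 3743. Leaving out any 1 neuron library, with or without those transcripts, gave 4108 to 4336. All 11 libraries held counts of Xist as well as of the Y-linked genes Ddx3y, Eif2s3y, Kdm5d and Uty.

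Of 11966 genes tested, 4925 (41.2%) differed between the cell types at an adjusted p under 0.05, of which 2221 (18.6%) were higher in neurons and 2704 (22.6%) were lower. These shares, with a median log2 difference (neurons minus astrocytes) of -0.18 over all genes tested, are the background against which each gene group is set. A log2 difference of at least 2, a 4-fold difference, was reached by 1669 of the genes higher in neurons and 1635 of those higher in astrocytes, and a log2 difference of at least 5 by 433 and 265. All 6 neuron libraries lay above all 5 astrocyte libraries for 2083 genes (17.4%) and below them for 1643 (13.7%). The scaling between libraries sets the balance of directions. Genes higher in neurons made up 45.1% of the calls here and 63.6% when libraries were scaled by total counts only, under which the median of all genes moved to 0.35. They made up 51.3% with RLE size factors (median -0.01), 51.5% with the authors' size factors, 50.6% with DESeq2 and 55.9% with voom. With the main scaling kept, their share was 43.4 to 47.2% when libraries were left out. Which direction held more genes thus depended on the processing. In these bulk samples fewer cells of a type and less RNA per cell cannot be told apart.

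The genes whose proteins were used to sort the cells followed the labels in every library. Rbfox3, which encodes the neuronal splicing factor NeuN and lies in GRCm38.p6 on chromosome 11 from 118489760 to 118911597, was at 49.7 to 82.5 CPM (median 68.5 CPM) in the 6 neuron libraries and at 2.51, 8.08, 0.363, 8.76 and 0.368 CPM in astrocyte libraries 1 to 5. Gfap, the astrocyte intermediate filament gene on chromosome 11 from 102887336 to 102897200, was at 2.18 to 12.4 CPM (median 8.56 CPM) in neurons and at 827, 804, 1073, 1116 and 843 CPM in astrocytes. Neither pair of groups overlapped, and the log2 differences were 4.08 (SE 0.69, adjusted p = 1.46e-04) for Rbfox3 and -6.9 (SE 0.35, adjusted p = 8.27e-10) for Gfap. Since the sort used both proteins, these values check the labels and are not a finding. Among markers that the sort did not use, Syt1, a calcium sensor of vesicle release, was at 265 to 406 CPM (median 350.4 CPM) in neurons and at 21.7, 25.5, 3.99, 15.3 and 5.15 CPM in astrocytes, a log2 difference of 4.59 (SE 0.45, adjusted p = 6.37e-07). The gene overlaps Gm5136. Slc1a2, the main glutamate transporter of astrocytes, was at 259.9 to 438 CPM (median 369 CPM) in neurons and at 8292, 19354, 10036, 12625 and 9917 CPM in astrocytes, a log2 difference of -5.04 (SE 0.24, adjusted p = 5.56e-10). The groups stood apart for both, and each of these 4 markers was above 0 in every library of the other cell type.

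**Figure D1:**
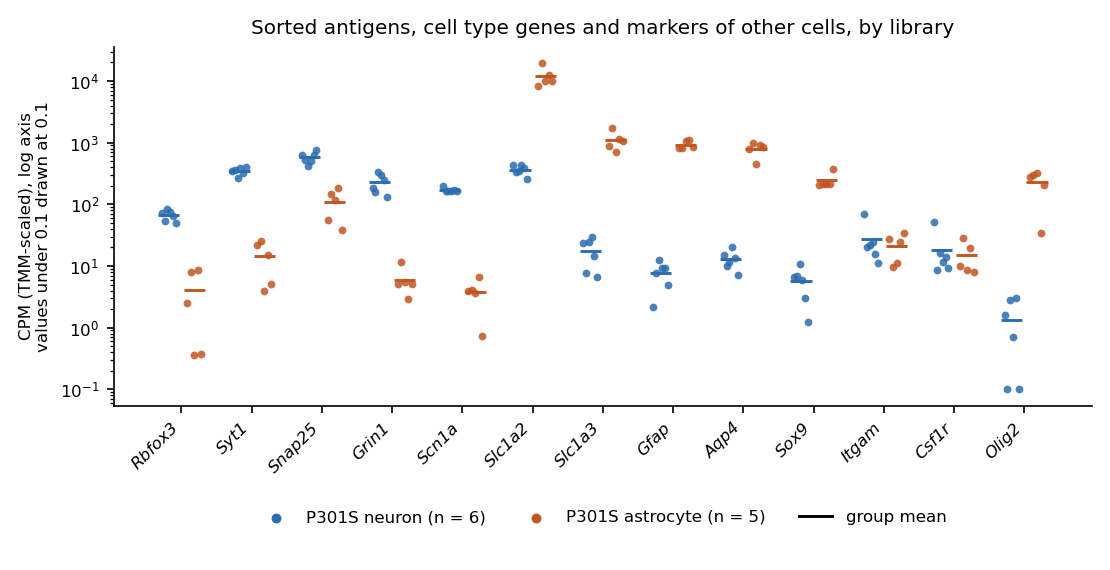
CPM of 13 marker genes in each of the 6 neuron and 5 astrocyte libraries from P301S mice, on a log axis, with values under 0.1 drawn at 0.1 and horizontal bars at the group means. Neuron markers such as Rbfox3 and Syt1 and astrocyte markers such as Gfap and Aqp4 separate the groups, the oligodendrocyte-lineage gene Olig2 is higher in astrocyte libraries, and the microglial genes Itgam and Csf1r overlap.

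Pan-neuronal genes were higher in neurons, though not uniformly. Of 16 genes in the neuron identity list, 15 were tested, 9 were called higher in neurons and none lower, with a median log2 difference of 2.08. The 9 include Rbfox3, whose protein was used for the sort and whose direction is not a finding. Besides Rbfox3 and Syt1, the splicing regulator Rbfox1 (log2 difference 3.53, SE 0.28), the RNA-binding protein gene Elavl3 (log2 difference 2.14, SE 0.30) and the SNARE gene Snap25 (log2 difference 2.43, SE 0.36) were among them. The other 6 tested members (Stmn2, Nefl, Eno2, Map2, Elavl2 and Elavl4) missed the threshold, with a log2 difference of 0.94 (SE 0.75, adjusted p = 0.338) for Stmn2, a microtubule regulator. Map2, a dendritic microtubule protein gene, had 0.45 (adjusted p = 0.0876) and passed as higher in neurons under 12 of the other settings, among them DESeq2 (0.61, adjusted p = 0.0352) and total counts only (adjusted p = 7.28e-04). Snap25 was at 412 to 755 CPM (median 573 CPM) in neurons and at 54.9, 147, 116, 182 and 37.9 CPM in astrocytes, so astrocyte libraries 2 and 4 carried a sizeable level of a neuronal transcript while still below every neuron library.

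Genes that mark particular neuron classes split. Of 13 excitatory-neuron genes, all tested, 5 were higher in neurons, among them the transcription factors Neurod6 (log2 difference 4.4, SE 0.82) and Neurod2 (log2 difference 3.05, SE 0.58) and the kinase gene Camk2a (log2 difference 1.47, SE 0.33), and 2 were lower, with a median of 1.37. The 5 became 3 without astrocyte library 1 or 2, and 9 without astrocyte libraries 3 and 4 together. Neurod6 was at 39.4 to 56.3 CPM (median 42.1 CPM) in neurons and at 3.62, 0.311, 0, 0 and 5.89 CPM in astrocytes, without overlap. Slc17a7, the vesicular glutamate transporter VGLUT1, was at 23.9 to 41 CPM (median 32.6 CPM) in neurons and at 1.11, 2.49, 18.9, 1.46 and 17.7 CPM in astrocytes, where libraries 3 and 5 stood well above the other 3. Its log2 difference was 1.96 (SE 0.69, adjusted p = 0.0304), and 3.24 with voom and sample weights. The call was lost without astrocyte library 1 (1.67, adjusted p = 0.0524), astrocyte library 2 (1.69, adjusted p = 0.06) or neuron library 3 (1.89, adjusted p = 0.0587). The 2 lower members were Fezf2 (log2 difference -2.66, SE 0.43), a regulator of deep-layer projection neurons, and Rorb, a nuclear receptor used as a layer 4 marker. Rorb was at 2.74 to 22.3 CPM (median 8.88 CPM) in neurons and at 255, 366, 237, 199 and 297 CPM in astrocytes, every astrocyte library lying above every neuron library, a log2 difference of -4.78 (SE 0.43, adjusted p = 2.41e-07).

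Inhibitory-neuron genes were higher in neurons for 7 of the 8 tested out of 12, none was lower, and the median was 3.88. Gad2, an enzyme of GABA synthesis, was at 50.1 to 96.4 CPM (median 64.5 CPM) in neurons and at 10.9, 0, 0.363, 0 and 0.368 CPM in astrocytes, so astrocyte library 1 held most of the astrocyte counts. The log2 difference was 4.75 (SE 0.93, adjusted p = 5.65e-04), and 8.11 without that library. The other GABA-synthesising enzyme, Gad1, was at 21.2 to 46.4 CPM (median 32.2 CPM) in neurons and at 3.9, 0.311, 2.18, 8.03 and 1.1 CPM in astrocytes, a log2 difference of 3.46 (SE 0.66, adjusted p = 4.87e-04). Dlx1, a transcription factor of the interneuron lineage, had a log2 difference of 4.71 (SE 0.83). Lhx6, a transcription factor of interneurons born in the medial ganglionic eminence, had 73 counts over the neuron libraries and 0 over the astrocyte libraries, which makes it at least 24-fold higher against a floor of 3 counts over the group. Of 11 dentate granule genes, 10 were tested, 7 were higher in neurons and 1 was lower, with a median of 3.62. C1ql3, a secreted synaptic organiser, was at 65.9 to 157 CPM (median 117 CPM) in neurons and at 5.57, 18.6, 1.09, 6.57 and 4.79 CPM in astrocytes, and its relative C1ql2 was at 5.57 to 9.25 CPM (median 7.57 CPM) and at 1.39, 0, 0, 0 and 0 CPM. The log2 differences were 3.96 (SE 0.55, adjusted p = 2.25e-05) and 4.31 (SE 0.90, adjusted p = 9.64e-04), without overlap for either, and C1ql2 had 7.18 without astrocyte library 1. Prox1, which specifies granule cells, had a log2 difference of 1.87 (SE 0.31). Lct, lactase, had 209 counts in neurons and 3 in astrocytes, a CPM ratio of 68.8 with a 95% counting interval of 23.2 to 336.1. The lower member was Igfbp5, a secreted binding protein of insulin-like growth factors, at 17.4 to 35.4 CPM (median 27.6 CPM) in neurons and at 327, 793, 588, 263 and 416 CPM in astrocytes, a log2 difference of -4.12 (SE 0.32, adjusted p = 5.26e-08).

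The machinery of transmitter release was higher in neurons in most of its measured parts. Of 20 genes, 19 were tested, 14 were higher and none was lower, with a median of 1.77. Sv2b, a vesicle glycoprotein, was at 66.4 to 151 CPM (median 91.6 CPM) in neurons and at 5.29, 3.11, 0, 0.73 and 0 CPM in astrocytes, 2 of which had no count, and its log2 difference was 5.59 (SE 0.76, adjusted p = 1.87e-05). Bsn, bassoon of the active zone, was at 196 to 274 CPM (median 224 CPM) in neurons and at 48.2, 94.4, 43.5, 32.1 and 76.6 CPM in astrocytes, a log2 difference of 1.95 (SE 0.29, adjusted p = 4.42e-05), with neurons above astrocytes in every library for both genes. Another 5 tested members missed the threshold, among them Vamp1, Vamp2, Cplx1 and Rab3a.

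Receptors for glutamate and GABA were mostly higher in neurons, with named exceptions. All 23 were tested, 18 were higher in neurons and 3 were lower, with a median of 2.87, and the groups did not overlap for these 21. Grin1, the obligatory subunit of NMDA receptors, was at 129.6 to 335 CPM (median 219 CPM) in neurons and at 5.01, 11.5, 5.44, 2.92 and 5.15 CPM in astrocytes, a log2 difference of 5.19 (SE 0.42, adjusted p = 7.71e-08); it overlaps Lrrc26. Grin2b, a regulatory NMDA subunit, was at 1138 to 1419.7 CPM (median 1289 CPM) in neurons and at 167, 315, 183, 105 and 104 CPM in astrocytes, a log2 difference of 2.87 (SE 0.27, adjusted p = 5.14e-07). Neurons were above astrocytes in every library for both, yet Grin2b stayed above 100 CPM in each astrocyte library. The NMDA subunit gene Grin2a had a log2 difference of 4.6. The AMPA receptor genes Gria1 and Gria2 had log2 differences of 2.41 and 1.54. The 3 members higher in astrocytes were Grm3, Gabrb1 and Gabbr1. Grm3, a metabotropic receptor, was at 5.79 to 25 CPM (median 11.6 CPM) in neurons and at 84.1, 48.2, 262, 94.9 and 96.4 CPM in astrocytes, library 3 being the highest, with a log2 difference of -3.11 (SE 0.49, adjusted p = 7.43e-05). Gabrb1, a GABA-A receptor subunit that overlaps Gabra4, was at 252 to 445 CPM (median 331 CPM) in neurons and at 759, 1040.4, 999, 960.5 and 604 CPM in astrocytes, a log2 difference of -1.34 (SE 0.20, adjusted p = 4.47e-05), and of -0.79 when scaled by total counts only. Gabbr1, a GABA-B receptor subunit, had a log2 difference of -1.1 (SE 0.25, adjusted p = 0.00225), a call that was lost when scaled by total counts only (-0.48, adjusted p = 0.095), while its partner Gabbr2 was higher in neurons, with a log2 difference of 2.63 (SE 0.45).

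Of 15 postsynaptic scaffold and kinase genes, all tested, 11 were higher in neurons and none lower, with a median of 2.0. Dlgap2, a scaffold of the postsynaptic density, was at 149.7 to 201 CPM (median 170.2 CPM) in neurons and at 3.9, 2.49, 4.35, 3.65 and 3.31 CPM in astrocytes, a log2 difference of 5.59 (SE 0.32, adjusted p = 2.31e-09). Kalrn, an exchange factor that shapes dendritic spines, was at 683 to 994 CPM (median 819 CPM) in neurons and at 155, 219, 210.0, 126 and 166 CPM in astrocytes, a log2 difference of 2.25 (SE 0.21, adjusted p = 3.24e-07). The scaffold gene Shank2 had a log2 difference of 2.15 (SE 0.46). Dlgap2 and Kalrn separated the groups, whereas 4 members missed the threshold, among them Nlgn3, Shank3 and Dlg4 (PSD-95), the last with a log2 difference of -0.75 (SE 0.49, adjusted p = 0.237).

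Every member of the sodium and calcium channel list passed. All 14 genes were tested, higher in neurons and free of overlap between groups, with a median of 3.52 and log2 differences from 1.31 (Scn8a) to 5.53 (Scn1a). Scn1a, a pore-forming sodium channel gene, was at 162 to 199 CPM (median 165 CPM) in neurons and at 3.9, 4.04, 3.63, 6.57 and 0.736 CPM in astrocytes, with an adjusted p of 4.42e-08. Cacna1e, an R-type calcium channel gene, was at 1028 to 1216 CPM (median 1160.0 CPM) in neurons and at 39.3, 78.6, 30.1, 16.1 and 33.9 CPM in astrocytes, a log2 difference of 4.84 (SE 0.34, adjusted p = 1.86e-08). Scn2a and Cacna1b, a further sodium channel gene and the N-type calcium channel gene, had a log2 difference of 4.22 (SE 0.39) and 5.43 (SE 0.37).

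Potassium channel genes were higher in neurons for some members and in astrocytes for others. All 16 were tested, 6 were higher in neurons and 5 were lower, with a median of 1.34. The fast delayed rectifier gene Kcnc1 was at 57.1 to 91.9 CPM (median 83.2 CPM) in neurons and at 1.95, 0.311, 0.726, 0.73 and 3.68 CPM in astrocytes, a log2 difference of 5.68 (SE 0.56, adjusted p = 7.00e-07). The calcium-activated channel gene Kcnma1 was higher, with a log2 difference of 2.81 (SE 0.26). Kcnq3, a subunit of the M-current channel, had a log2 difference of 1.28 (SE 0.78, adjusted p = 0.205). In the other direction, the inward rectifier gene Kcnj10, which encodes the glial potassium channel Kir4.1, was at 2.07 to 22.3 CPM (median 7.15 CPM) in neurons and at 475, 476, 403, 542 and 409 CPM in astrocytes, a log2 difference of -5.75 (SE 0.46, adjusted p = 7.51e-08). Its partner Kcnj16 had a log2 difference of -5.29 (SE 0.81). Kcna2, a delayed rectifier gene known from axons, was higher in astrocytes, at 109 to 164 CPM (median 136 CPM) in neurons and at 396, 402, 456, 370.0 and 389 CPM in astrocytes, a log2 difference of -1.56 (SE 0.19, adjusted p = 4.45e-06), and of -1.03 when scaled by total counts only. Its groups did not overlap.

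Mapt did not pass the threshold. Counts under this mouse gene, on chromosome 11 from 104229409 to 104332090, gave 31.9 to 64.1 CPM (median 49.5 CPM) in neurons and 78.6, 40.7, 84.5, 115 and 125 CPM in astrocytes. Astrocyte library 2 lay within the neuron range and the other 4 lay above it, and the log2 difference was -0.85 (SE 0.33, adjusted p = 0.0502). The sources used here do not say whether reads from the human transgene were counted under Mapt. Without astrocyte library 2 the difference was -1.07 (adjusted p = 0.00861), without astrocyte library 3 it was -0.87 (adjusted p = 0.0476), and in the fit of all 25 libraries -0.82 (adjusted p = 0.0311). Over the whole list of tau, microtubule proteins and tau kinases, 21 of 23 genes were tested, 4 were higher in neurons and 4 were lower, with a median of -0.21, shares near the background; 2 rather than 4 were lower without neuron library 1, 2 or 6. Map1b, a microtubule-binding protein of growing and mature axons, was at 1019 to 1804 CPM (median 1433 CPM) in neurons and at 293, 249, 336, 517 and 271 CPM in astrocytes, a log2 difference of 2.09 (SE 0.23, adjusted p = 1.93e-06). Map4, a broadly expressed microtubule-binding protein gene, was at 101 to 179 CPM (median 142 CPM) in neurons and at 514, 401, 999, 812 and 371 CPM in astrocytes, a log2 difference of -2.12 (SE 0.27, adjusted p = 1.03e-05). The groups stood apart in opposite directions. Map6, which stabilises cold-resistant microtubules, was higher in neurons (log2 difference 1.95, SE 0.32), and the beta-tubulin gene Tubb2b, of a family of near-identical copies, was lower (log2 difference -2.55, SE 0.59). The tau kinase gene Gsk3b had a log2 difference of -0.44 (SE 0.37, adjusted p = 0.37) and changed sign to 0.072 when scaled by total counts only, and it was called without astrocyte library 5 (-0.69, adjusted p = 0.047).

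Among 13 amyloid, prion and synuclein genes, all tested, 3 were higher in neurons and 2 were lower, with a median of -0.53, shares near the background. App, the amyloid precursor gene, was at 94.2 to 143 CPM (median 97.9 CPM) in neurons and at 56.8, 36.3, 21, 48.2 and 29.8 CPM in astrocytes, a log2 difference of 1.45 (SE 0.32, adjusted p = 0.00149). Neurons lay above astrocytes in every library for App. The gene of beta-synuclein, Sncb, was higher in neurons, with a log2 difference of 4.62 (SE 0.89). Prnp, the prion protein gene, was at 45.6 to 114 CPM (median 93.2 CPM) in neurons and at 95.8, 136, 108, 174 and 207 CPM in astrocytes, groups that overlapped, with a log2 difference of -0.76 (SE 0.29, adjusted p = 0.0498). That call was lost under most other settings, including without each of the 6 neuron libraries in turn and without astrocyte library 4 or 5 (adjusted p from 0.0698 to 0.155), and the gene overlaps Prn. Aplp1, a relative of App, had a log2 difference of -0.97 (SE 0.24, adjusted p = 0.00404), a call lost when scaled by total counts only (-0.42, adjusted p = 0.223).

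Genes induced by neuronal activity were higher in neurons for 7 of the 9 tested out of 12, 1 was lower, and the median was 2.62. Npas4, a transcription factor switched on by calcium entry, was at 19 to 67.7 CPM (median 33.6 CPM) in neurons and at 0.557, 0.621, 0.726, 4.38 and 4.42 CPM in astrocytes, a log2 difference of 4.22 (SE 0.69, adjusted p = 1.05e-04). Arc, which trims synaptic AMPA receptors, was at 7.08 to 34.1 CPM (median 17.8 CPM) in neurons and at 2.23, 1.24, 0.363, 0 and 3.68 CPM in astrocytes, a log2 difference of 3.58 (SE 0.74, adjusted p = 9.11e-04). Both groups stood apart in each case, and the synaptic scaffold gene Homer1 was higher, with a log2 difference of 3.06 (SE 0.43). Dusp1, a phosphatase of stress-activated kinases, was the lower member, at 6.84 to 14.1 CPM (median 7.68 CPM) in neurons and at 27, 109, 15.6, 11.7 and 20.2 CPM in astrocytes, with astrocyte library 2 far above the rest. Its log2 difference of -2.07 (SE 0.58, adjusted p = 0.00921) became -1.12 (adjusted p = 0.0555) without that library.

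Axon guidance and adhesion genes, 18 of 18 tested, were higher in neurons for 11 and lower for 3, with a median of 1.82. Lrrtm4, a postsynaptic adhesion gene, was at 334 to 533 CPM (median 369 CPM) in neurons and at 10.0, 2.49, 1.45, 15.3 and 0.736 CPM in astrocytes, a log2 difference of 6.13 (SE 0.61, adjusted p = 7.40e-07). Epha7, an ephrin receptor gene, was at 507 to 657 CPM (median 613 CPM) in neurons and at 13.4, 14, 34.5, 60.6 and 6.99 CPM in astrocytes, a log2 difference of 4.57 (SE 0.47, adjusted p = 9.91e-07). Neither gene showed overlap, and the Slit receptor gene Robo2 was higher, with a log2 difference of 1.18 (SE 0.34). The semaphorin receptor gene Plxnb1 ran the other way, at 1.24 to 11.4 CPM (median 9.06 CPM) in neurons and at 341, 491, 601, 271 and 559 CPM in astrocytes, a log2 difference of -5.87 (SE 0.43, adjusted p = 3.13e-08). Nrxn3, a presynaptic adhesion gene, was higher in neurons, with a log2 difference of 4.36 (SE 0.30).

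Long non-coding RNAs of the imprinted Meg3 domain were higher in neurons and Neat1 was higher in astrocytes. Of 12 listed RNAs, all with a test, 6 were higher in neurons and 2 lower, with a median of 1.26. Meg3 was at 23871 to 43899.6 CPM (median 28789.7 CPM) in neurons and at 1098, 799, 1110.4, 948 and 727 CPM in astrocytes, a log2 difference of 5.0 (SE 0.22, adjusted p = 2.77e-10). Its neighbour Rian had a log2 difference of 6.17 (SE 0.46) and Snhg11, from another locus, one of 5.72 (SE 0.21). Meg3 overlaps Rtl1. Neat1, the scaffold of nuclear paraspeckles, was at 2.9 to 13.6 CPM (median 4.21 CPM) in neurons and at 333, 182, 321, 415 and 422 CPM in astrocytes, a log2 difference of -5.86 (SE 0.43, adjusted p = 2.77e-08). The groups stood apart for both genes, in opposite directions. Malat1, an abundant nuclear RNA, was at 175735 to 270103 CPM (median 189763 CPM) in neurons and at 321879.9, 277154, 355389, 717277 and 349829 CPM in astrocytes, a log2 difference of -1.0 (SE 0.22, adjusted p = 0.00146), with astrocyte library 4 the highest. That difference was -0.38 when scaled by total counts only, -0.67 with the sex-marker covariate and -0.62 without astrocyte libraries 3 and 4, and was called each time.

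Astrocyte identity genes were higher in astrocytes throughout. All 16 were tested, all 16 were lower in neurons with no overlap between groups, and the median was -5.95. The 16 include Gfap, whose protein was used for the sort and whose direction is not a finding. Aqp4, the endfoot water channel, was at 7.04 to 20.1 CPM (median 12.4 CPM) in neurons and at 802, 974, 450.2, 910.1 and 858 CPM in astrocytes, a log2 difference of -5.95 (SE 0.31, adjusted p = 1.01e-09). Slc1a3, the glutamate transporter GLAST, was at 6.62 to 29.1 CPM (median 19.3 CPM) in neurons and at 885, 1711, 715, 1141 and 1068 CPM in astrocytes, a log2 difference of -5.95 (SE 0.41, adjusted p = 1.37e-08). Fgfr3, a growth factor receptor of astrocytes, was at 2.48 to 9.36 CPM (median 3.51 CPM) in neurons and at 189, 439, 655, 446 and 452 CPM in astrocytes, a log2 difference of -6.5 (SE 0.43, adjusted p = 8.84e-09). Aldh1l1, a folate enzyme gene often used to label astrocytes, had a log2 difference of -5.85 (SE 0.68). In the same libraries oligodendrocyte markers were also higher in astrocytes for 5 of the 5 tested out of 11. Precursor markers were higher there for 2 of the 2 tested out of 8, Olig2 and Vcan. Pdgfra, Cspg4, Gpr17, Olig1, C1ql1 and Sox10 were without a test, so the precursor result rests on Olig2 and Vcan alone. Pdgfra stood out in astrocyte library 3 only, as given above. Olig2, a transcription factor of the oligodendrocyte lineage, was at 0 to 3.0 CPM (median 1.16 CPM) in neurons and at 275, 297, 321, 34.3 and 208 CPM in astrocytes. Their part in the astrocyte results was not tested.

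**Figure D2:**
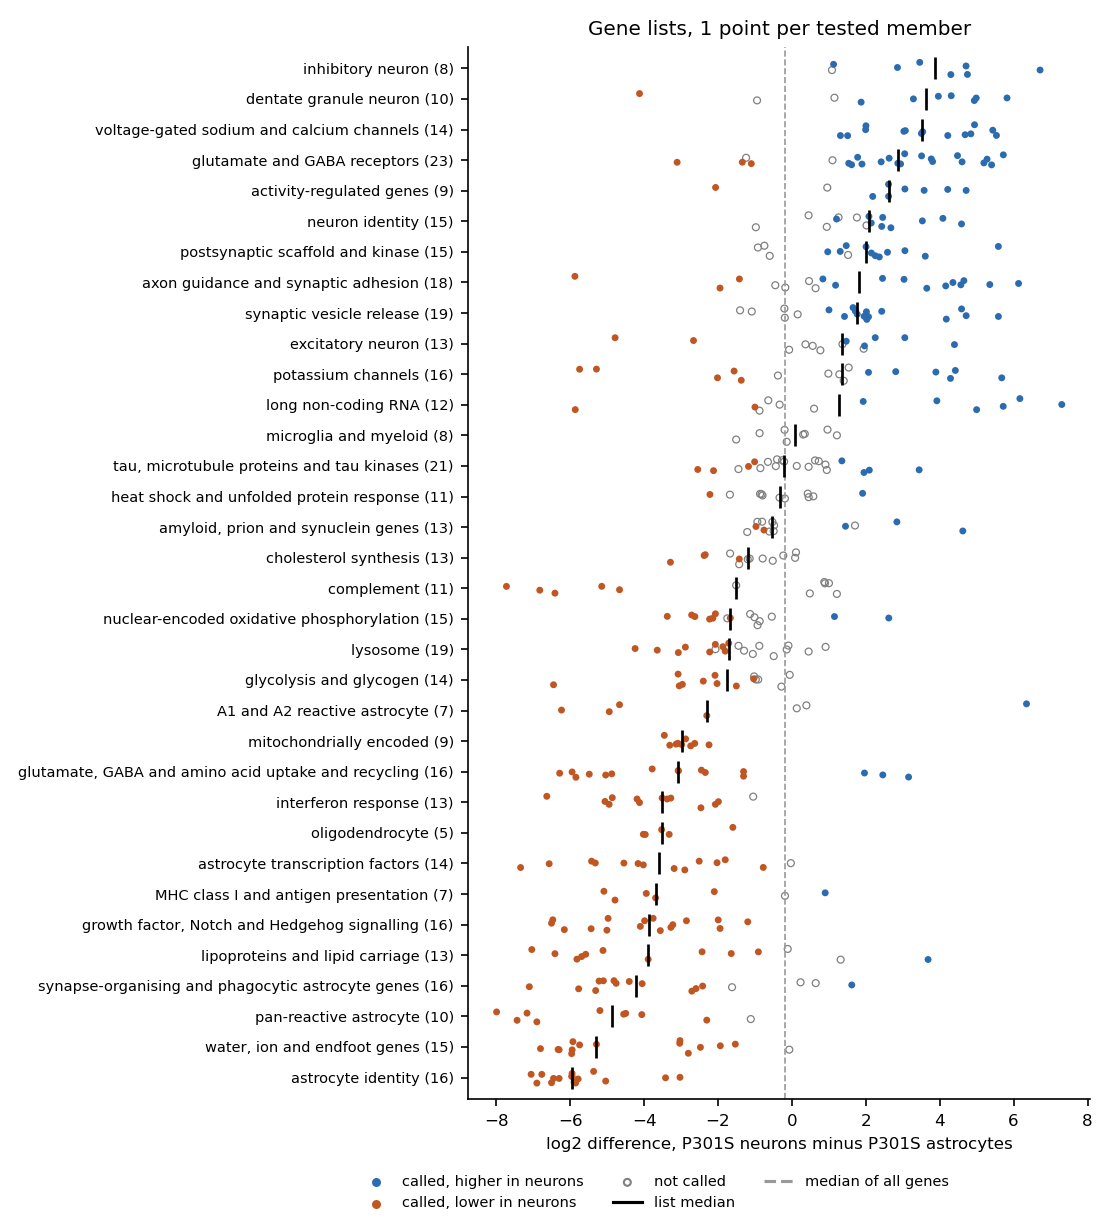
Log2 difference (neurons minus astrocytes, P301S) of each tested member of the gene lists with at least 5 tested members, sorted by the list median. Sodium and calcium channels lie wholly on the neuron side and astrocyte identity genes wholly on the astrocyte side, while the tau and microtubule list is spread around a median of -0.21.

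Genes for the uptake and recycling of glutamate, GABA and amino acids were divided between the cell types. Of 16 genes, all tested, 13 were lower in neurons and 3 were higher, with a median of -3.07. Glul, glutamine synthetase, which turns glutamate into glutamine, was at 14.5 to 27.2 CPM (median 15.6 CPM) in neurons and at 225, 959, 496, 502 and 406 CPM in astrocytes, a log2 difference of -4.88 (SE 0.35, adjusted p = 2.45e-08). Its groups did not overlap. The GABA transporter gene Slc6a11 (GAT3) had a log2 difference of -5.48 (SE 0.45). Slc1a1, the neuronal glutamate transporter EAAC1, was at 46.3 to 78.9 CPM (median 56.5 CPM) in neurons and at 7.24, 1.24, 2.54, 45.3 and 0 CPM in astrocytes, with library 4 next to the lowest neuron library. Its log2 difference of 2.46 (SE 0.89, adjusted p = 0.0353) lost the call without astrocyte library 1, 2 or 3 or neuron library 2, 3, 4 or 6 (adjusted p from 0.0506 to 0.0785). Without astrocyte library 4 its log2 difference was 4.36 (adjusted p = 1.38e-04), near the 4.21 with voom and 4.16 with the sex-marker covariate. The members called higher fell from 3 to 1 without astrocyte library 1, astrocyte library 2 or neuron library 3.

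Water, ion and endfoot genes were lower in neurons for 14 of 15, all tested, with a median of -5.29. Atp1b2, a subunit of the sodium pump, was at 25.1 to 54.8 CPM (median 36.3 CPM) in neurons and at 1848, 3414, 2156, 2517 and 1808 CPM in astrocytes, a log2 difference of -5.96 (SE 0.26, adjusted p = 2.77e-10). Its groups did not overlap. The member not called was the chloride cotransporter gene Slc12a2 (adjusted p = 0.902). Among astrocyte transcription factors, 13 of the 14 tested out of 16 were lower in neurons and none was higher, with a median of -3.6. Sox9, which drives glial fate, was at 1.24 to 10.6 CPM (median 6.21 CPM) in neurons and at 205, 213, 217, 214 and 372 CPM in astrocytes, a log2 difference of -5.42 (SE 0.43, adjusted p = 7.64e-08). Rfx4 was at 2.9 to 10.4 CPM (median 4.87 CPM) in neurons and at 505, 465, 688, 234 and 825 CPM in astrocytes, a log2 difference of -6.57 (SE 0.41, adjusted p = 6.50e-09). The groups did not overlap for either. Nfia, a nuclear factor that promotes gliogenesis, and Npas3 were lower in neurons, with log2 differences of -2.51 and -4.02. Nfib was the member not called (adjusted p = 0.932).

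Lipoprotein and lipid carriage genes were lower in neurons for 10 of the 13 tested out of 15 and higher for 1, with a median of -3.89. Apoe, the main brain apolipoprotein, was at 5.48 to 25.6 CPM (median 6.54 CPM) in neurons and at 361, 507, 611, 507 and 501 CPM in astrocytes, a log2 difference of -5.69 (SE 0.41, adjusted p = 2.45e-08). Clu, clusterin, was at 8.69 to 19.1 CPM (median 13.7 CPM) in neurons and at 615, 1281, 1047, 1460.4 and 1364 CPM in astrocytes, a log2 difference of -6.41 (SE 0.30, adjusted p = 3.34e-10). Every astrocyte library was above every neuron library for both, and the peroxiredoxin gene Prdx6 was lower in neurons, with a log2 difference of -5.11 (SE 0.29). The 2 cholesterol exporters went opposite ways: Abca1 was lower in neurons, with a log2 difference of -3.89 (SE 0.26), and Abcg1 was at 9.52 to 22.9 CPM (median 16 CPM) in neurons and at 2.79, 0.932, 0.363, 2.19 and 0 CPM in astrocytes, a log2 difference of 3.68 (SE 0.75, adjusted p = 7.97e-04). Genes of cholesterol synthesis were less divided, with 4 of the 13 tested out of 16 lower in neurons, none higher and a median of -1.2. The 4 were Fdft1 (-3.29), which overlaps Ctsb, and Msmo1 (-2.38), Dhcr7 (-2.35) and Hmgcs1 (-1.42), all log2 differences. Msmo1 had -1.55 without astrocyte library 5. Dhcr7 lost its call with total counts only (-1.6, adjusted p = 0.0643), with voom (-0.97, adjusted p = 0.239), with the sex-marker covariate and without astrocyte library 4 (-1.65, adjusted p = 0.051), and had -0.55 (adjusted p = 0.428) without astrocyte libraries 3 and 4. Hmgcs1 lost its call with total counts only (-0.74, adjusted p = 0.189), with voom, with no filter, with the sex-marker covariate and without neuron library 1, neuron library 5 or astrocyte library 4 (-0.89, adjusted p = 0.0589, without the last). Without astrocyte library 3 the number called lower was 8, and without neuron libraries 2 and 6 together it was 1.

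Growth factor, Notch and Hedgehog genes were lower in neurons for 16 of the 16 tested out of 19, with a median of -3.87. Gli3, a transcription factor of the Hedgehog pathway, was at 0.828 to 4.61 CPM (median 3.4 CPM) in neurons and at 230.4, 224, 281, 224 and 217 CPM in astrocytes, a log2 difference of -6.16 (SE 0.37, adjusted p = 3.44e-09). Notch1 was at 3.81 to 6.91 CPM (median 5.04 CPM) in neurons and at 114, 309, 258, 247 and 197 CPM in astrocytes, a log2 difference of -5.43 (SE 0.35, adjusted p = 7.13e-09). In each the groups stood apart, and Notch2 was lower in neurons, with a log2 difference of -3.76 (SE 0.27). Pdgfrb, on this list and also a marker of mural cells, had a log2 difference of -5.01 (SE 0.56); summed mural and fibroblast markers were higher in astrocyte libraries (adjusted p = 0.00794, exact 2-sided permutation test), and their part was not tested. Genes by which astrocytes organise or engulf synapses were lower in neurons for 12 of the 16 tested out of 19 and higher for 1, with a median of -4.23. Mertk, a phagocytic receptor, was at 13.7 to 71.3 CPM (median 20.5 CPM) in neurons and at 378, 1095, 477, 1072 and 687 CPM in astrocytes, a log2 difference of -4.76 (SE 0.45, adjusted p = 4.47e-07). Sparcl1 (hevin), a secreted organiser of excitatory synapses, was at 83.5 to 171 CPM (median 129.5 CPM) in neurons and at 1611, 1907, 1919.8, 3122 and 2199 CPM in astrocytes, a log2 difference of -4.05 (SE 0.23, adjusted p = 2.53e-09). The proteoglycan genes Bcan and Gpc5 were lower in neurons, with log2 differences of -5.1 and -4.81. The exception was tenascin-R (Tnr), a component of perineuronal nets, at 390.3 to 652 CPM (median 539 CPM) in neurons and at 224, 219, 86, 241 and 104 CPM in astrocytes, a log2 difference of 1.62 (SE 0.29, adjusted p = 2.38e-04).

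Pan-reactive astrocyte genes were higher in the astrocyte libraries, and most were so in non-Tg mice too, as given below. Of 13 genes, 10 were tested, 9 were lower in neurons and none higher, with a median of -4.87. The 9 include Gfap, whose protein was used for the sort and whose direction is not a finding. The part of that sort in the other members was not tested. Serpina3n, a secreted protease inhibitor, was at 6.85 to 17.3 CPM (median 14 CPM) in neurons and at 290.0, 425, 268, 237 and 336 CPM in astrocytes, a log2 difference of -4.55 (SE 0.30, adjusted p = 8.15e-09). Osmr, the oncostatin M receptor, was at 0.414 to 4.35 CPM (median 1.51 CPM) in neurons and at 362, 278, 149, 351 and 309 CPM in astrocytes, a log2 difference of -7.44 (SE 0.48, adjusted p = 8.60e-09). Vim, vimentin, was at 2.28 to 5.53 CPM (median 2.84 CPM) in neurons and at 85.3, 203, 80.2, 157 and 95.3 CPM in astrocytes, a log2 difference of -5.2 (SE 0.42, adjusted p = 7.16e-08). All 3 separated the groups, as did Aspg, an asparaginase gene (log2 difference -7.99, SE 0.67). The chemokine gene Cxcl10, which overlaps Art3, had 3 counts in neurons and 511 in astrocytes, a CPM ratio of 172.6 (95% counting interval 58.7 to 839.7). The lists of A1 and A2 states were thinly measured, 7 of 24 genes with a test, of which 4 were lower in neurons and 1 higher, with a median of -2.3. Ggta1, a glycosyltransferase on the A1 list, was at 0 to 3.81 CPM (median 1.68 CPM) in neurons and at 162, 58.7, 231, 53.3 and 122 CPM in astrocytes, a log2 difference of -6.24 (SE 0.71, adjusted p = 3.35e-06). Ugt1a1 and Iigp1 from that list were lower in neurons, with log2 differences of -4.94 and -2.3. The call of Iigp1 was lost with total counts only, with voom, with the sex-marker covariate and without astrocyte library 1 or neuron library 2, 4 or 6 (adjusted p from 0.0501 to 0.13). Ptgs2, a prostaglandin synthase on the A2 list that excitatory neurons also express, was at 28.1 to 92.7 CPM (median 36.6 CPM) in neurons and at 0.279, 0.932, 0.363, 0 and 0.736 CPM in astrocytes, a log2 difference of 6.35 (SE 0.65, adjusted p = 1.01e-06).

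Complement genes were lower in neurons for 5 of the 11 tested out of 19, none was higher, and the median was -1.51. C4b, which opens the classical cascade after C1, was at 0 to 9.22 CPM (median 2.95 CPM) in neurons and at 586, 939, 883, 883 and 806 CPM in astrocytes, a log2 difference of -7.72 (SE 0.56, adjusted p = 2.97e-08). C3, the central component, was at 0 to 1.66 CPM (median 0.442 CPM) in neurons and at 56.3, 24.5, 26.1, 13.9 and 9.57 CPM in astrocytes, a log2 difference of -5.15 (SE 0.79, adjusted p = 6.06e-05). The groups did not overlap for either, and the near-identical C4a (log2 difference -6.82, SE 0.42) may share reads with C4b. Serping1, the C1 inhibitor, and Clu were lower in neurons, with log2 differences of -4.66 and -6.41. C1qb and C1qc, which are microglial genes in brain, missed the threshold, and C1qc was at 1.29 to 24.5 CPM (median 5.5 CPM) in neurons and at 9.19, 1.55, 2.18, 3.65 and 1.1 CPM in astrocytes. The list's median moved to 0.18 without astrocyte library 3 and to between -3.57 and -2.89 without neuron library 1, 2, 3 or 4. None of the 8 tested microglial markers was called in either direction.

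Interferon-response genes were higher in astrocytes in 12 of the 13 tested out of 19, none was higher in neurons, and the median was -3.51. The promoters of Ddx60, Gbp7 and, from the MHC class I list below, B2m are shown because these genes were higher in astrocytes and their RefSeq (GRCm38.p6) windows, 250 bases before to 50 after the transcript start, hold the core of the interferon-stimulated response element, spelled GAAA, any 2 bases, GAAA and searched on both strands. Capitals mark the matches, on the strand of the gene or as its reverse complement. The windows are chr8:61927837-61928136 on the plus strand for Ddx60, chr3:142530086-142530385 on the plus strand for Gbp7 and chr2:122147437-122147736 on the plus strand for B2m, each printed 5′ to 3′ along the gene.
Ddx60: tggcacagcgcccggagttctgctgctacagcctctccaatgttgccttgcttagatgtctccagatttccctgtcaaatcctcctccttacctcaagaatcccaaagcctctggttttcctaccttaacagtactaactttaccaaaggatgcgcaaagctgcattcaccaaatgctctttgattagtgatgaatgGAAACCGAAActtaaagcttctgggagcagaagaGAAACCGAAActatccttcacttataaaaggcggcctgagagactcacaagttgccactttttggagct
Gbp7: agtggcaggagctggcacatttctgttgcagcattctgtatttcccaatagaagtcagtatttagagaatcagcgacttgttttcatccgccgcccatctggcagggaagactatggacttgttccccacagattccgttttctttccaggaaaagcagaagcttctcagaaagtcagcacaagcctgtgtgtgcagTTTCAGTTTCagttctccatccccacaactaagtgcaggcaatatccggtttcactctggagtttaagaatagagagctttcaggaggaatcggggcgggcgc
B2m: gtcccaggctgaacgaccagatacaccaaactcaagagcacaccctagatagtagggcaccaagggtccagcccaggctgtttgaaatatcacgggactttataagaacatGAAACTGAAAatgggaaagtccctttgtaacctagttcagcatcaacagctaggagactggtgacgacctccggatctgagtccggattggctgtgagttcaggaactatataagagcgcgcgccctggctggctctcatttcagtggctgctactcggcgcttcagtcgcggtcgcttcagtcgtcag
Ddx60 holds 2 matches, Gbp7 1 and B2m 1. The table matched 15 of the 19 genes on the interferon list, with 19 windows, of which 12 (63.2%) held the core. It was in 2.87% of 11345 windows of tested genes and in 3.44% of all 32851 windows, and its share was 3.66% among genes higher in neurons and 3.27% among genes lower in neurons. A match describes the letters and is not a measured site.

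Ddx60, a helicase that senses viral RNA, was at 5.93 to 12.5 CPM (median 8.77 CPM) in neurons and at 186, 40.4, 293, 185 and 79.1 CPM in astrocytes, a log2 difference of -4.12 (SE 0.47, adjusted p = 2.96e-06). Gbp7, an interferon-induced GTPase, was at 1.83 to 9.85 CPM (median 4.03 CPM) in neurons and at 107, 45.4, 188, 207 and 149.8 CPM in astrocytes, a log2 difference of -4.86 (SE 0.54, adjusted p = 2.42e-06). Astrocyte library 2 was the lowest astrocyte library for both genes, and still above every neuron library. Oasl2, an antiviral synthetase relative whose window holds no match, was at 3.81 to 9.68 CPM (median 7.28 CPM) in neurons and at 106, 60.0, 194, 469 and 279 CPM in astrocytes, a log2 difference of -4.95 (SE 0.50, adjusted p = 9.91e-07). Ifi27, which overlaps Ifi27l2a, was lower in neurons, with a log2 difference of -4.19 (SE 0.40), and Ifit1 (-1.05) was the member that missed the threshold, which it passed without astrocyte library 1 or 3 (adjusted p = 0.0365 and 0.0236).

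Of 12 genes of MHC class I presentation, 7 were tested, 5 were lower in neurons and 1 was higher, with a median of -3.69. B2m, the invariant light chain, was at 5.02 to 25 CPM (median 7.89 CPM) in neurons and at 41.8, 100.3, 120.1, 319.7 and 76.6 CPM in astrocytes, a log2 difference of -3.69 (SE 0.55, adjusted p = 4.42e-05); it overlaps Patl2. H2-K1, a heavy chain of a multigene family whose reads may be shared, was at 1.84 to 7.76 CPM (median 3.25 CPM) in neurons and at 25.9, 10.9, 47.9, 78.8 and 148 CPM in astrocytes, a log2 difference of -3.94 (SE 0.65, adjusted p = 1.15e-04). The groups did not overlap for either gene. Nlrc5, the transcriptional activator of the pathway, and the peptide transporter gene Tap2 were lower in neurons, with log2 differences of -4.79 and -5.09. Calr, a chaperone with wider roles, was the higher member (log2 difference 0.90, SE 0.28, adjusted p = 0.0166), a call lost with voom and sample weights (adjusted p = 0.0761), and had 1.46 when scaled by total counts only.

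**Figure D3:**
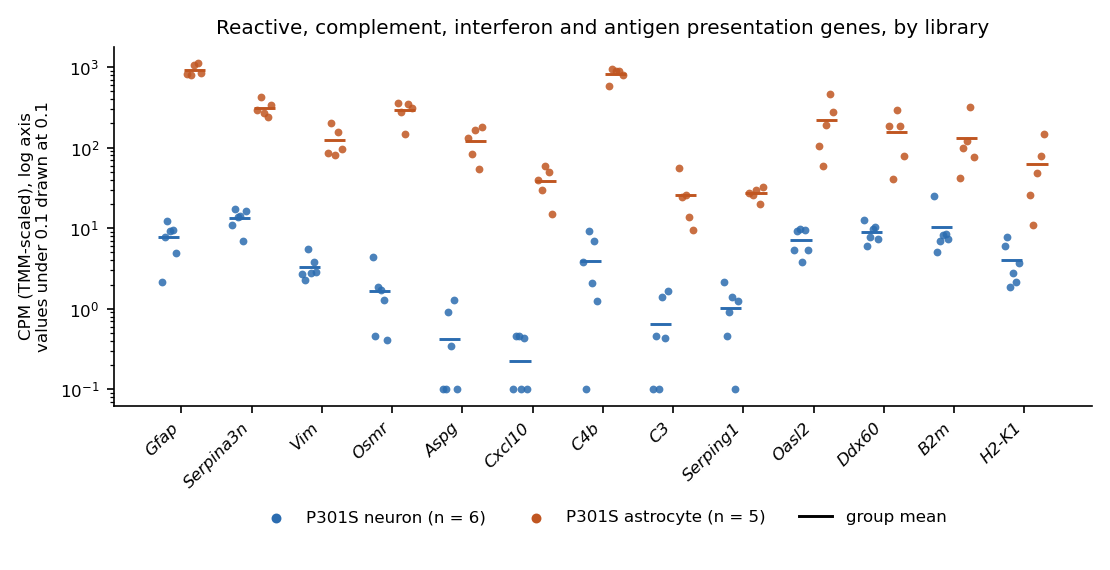
CPM of 13 reactive, complement, interferon and MHC class I genes in each of the 6 neuron and 5 astrocyte libraries from P301S mice, on a log axis with values under 0.1 drawn at 0.1 and horizontal bars at the group means. Gfap, whose protein was used for the sort, Osmr and C4b leave a wide gap between the groups.

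Energy metabolism genes were mostly on the astrocyte side. For glycolysis and glycogen, 14 of 22 genes were tested, 9 were lower in neurons and none higher, with a median of -1.76. Aldoc, the brain aldolase, was at 2.48 to 9.85 CPM (median 5.71 CPM) in neurons and at 347, 494, 686, 598 and 368 CPM in astrocytes, a log2 difference of -6.45 (SE 0.36, adjusted p = 2.11e-09). Pygb, glycogen phosphorylase, was at 12.4 to 31.6 CPM (median 22.6 CPM) in neurons and at 145, 63.7, 139.7, 77.4 and 176 CPM in astrocytes, a log2 difference of -2.4 (SE 0.37, adjusted p = 6.74e-05). Pfkfb3, which speeds glycolysis, had a log2 difference of -2.96 (SE 0.40). Aldoc and Pygb lacked overlap, whereas Hk1, the first enzyme of the pathway, had a log2 difference of -0.91 (SE 0.38, adjusted p = 0.0645) and was called without astrocyte library 4 (-1.09, adjusted p = 0.00804), with the sex-marker covariate and in the fit of all 25 libraries. Nuclear genes of oxidative phosphorylation were lower in neurons for 7 of the 15 tested out of 20 and higher for 2, with a median of -1.67. Atp5b, the catalytic subunit of ATP synthase, was at 22.6 to 32.4 CPM (median 26.2 CPM) in neurons and at 51.8, 98.2, 53.7, 179 and 239 CPM in astrocytes, a log2 difference of -2.23 (SE 0.41, adjusted p = 3.00e-04). Ndufa4 was at 9.0 to 22.3 CPM (median 12.1 CPM) in neurons and at 3.06, 1.55, 0, 6.57 and 0 CPM in astrocytes, a log2 difference of 2.62 (SE 0.88, adjusted p = 0.0246) that lost the call without neuron library 1 (2.47, adjusted p = 0.0513). Uqcrc2, of complex III, was the other higher member (log2 difference 1.15, SE 0.38, adjusted p = 0.0211), a call lost with voom (adjusted p = 0.0535) and with the sex-marker covariate (adjusted p = 0.052). Atp5a1 was lower (log2 difference -2.71, SE 0.40). Of 15 genes on mitochondrial DNA, 9 were tested and each was lower in neurons without overlap, with a median of -2.98. Among them mt-Co1 was at 912 to 2255 CPM (median 1235 CPM) in neurons and at 4636, 10045, 9383, 16937 and 8827 CPM in astrocytes, a log2 difference of -2.88 (SE 0.29, adjusted p = 8.70e-07). The mitochondrial share of counts given above moves with these values, and its part was not tested. The members without a test, mt-Nd3, mt-Nd4l, mt-Co2, mt-Co3, mt-Atp6 and mt-Atp8, had too few counts to pass the filter, so that share includes little of them.

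Lysosomal genes were lower in neurons for 9 of the 19 tested out of 20 and higher for none, with a median of -1.71. Ctsb, cathepsin B, which overlaps Fdft1, was at 25.7 to 51.7 CPM (median 32.1 CPM) in neurons and at 148, 176, 241, 388 and 296 CPM in astrocytes, a log2 difference of -2.88 (SE 0.31, adjusted p = 1.44e-06). Gpnmb, a transmembrane glycoprotein also known from disease-associated microglia, was at 4.14 to 12.9 CPM (median 7.38 CPM) in neurons and at 176, 152, 192, 125 and 98.3 CPM in astrocytes, a log2 difference of -4.24 (SE 0.37, adjusted p = 1.57e-07). Neither pair of groups overlapped, and the saposin precursor gene Psap was lower in neurons, with a log2 difference of -2.07 (SE 0.30). Ctsd, cathepsin D, was at 16.1 to 120.3 CPM (median 31.6 CPM) in neurons and at 149.6, 100.3, 49.7, 190.5 and 47.1 CPM in astrocytes, with a log2 difference of -1.3 (SE 0.51, adjusted p = 0.0527), and without neuron library 1 it was called (-1.83, adjusted p = 0.00481), as it was without astrocyte library 3 or 5 and in the fit of all 25 libraries. Heat shock and unfolded protein genes were seldom called, with 1 of 11 tested out of 17 higher in neurons, 1 lower and a median of -0.34. Hsp90aa1, an inducible chaperone, was higher (log2 difference 1.91, SE 0.47, adjusted p = 0.00353), and Pdia4, a disulphide isomerase of the endoplasmic reticulum, was lower (log2 difference -2.22, SE 0.47, adjusted p = 0.00102). Hspa8 and Hsp90ab1, constitutive chaperones, had log2 differences of -0.34 (SE 0.63, adjusted p = 0.702) and 0.43 (SE 0.25, adjusted p = 0.179). Hsp90ab1 was called with total counts only (0.97, adjusted p = 0.00525) and without astrocyte libraries 3 and 4 (0.72, adjusted p = 0.0265). Hspa8 changed sign under 4 of the other settings.

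Outside the lists, the genes with the smallest p-values fell into 2 plain groups. Higher in neurons were Trank1, at 647 to 977 CPM (median 756 CPM) in neurons and 20.6, 7.46, 6.53, 6.57 and 3.31 CPM in astrocytes (log2 difference 6.39, SE 0.42, adjusted p = 8.79e-09), and Kcnab2, a subunit of potassium channels that overlaps Nphp4, at 503 to 1027 CPM (median 695 CPM) and 13.1, 4.66, 22.1, 8.03 and 9.94 CPM (log2 difference 5.93, SE 0.39, adjusted p = 8.52e-09). The scaffold genes Erc2 and Ank3, of the active zone and the axon initial segment, were higher, with log2 differences of 3.89 and 3.78. The calcium release channel Ryr3 had one of 5.02. Higher in astrocytes was Prex2, an exchange factor for Rac, at 56.2 to 86.7 CPM (median 70.7 CPM) in neurons and 1220.3, 1735, 1544, 1975 and 1347 CPM in astrocytes (log2 difference -4.48, SE 0.20, adjusted p = 2.77e-10). Gnao1, the G protein subunit of the Go class often studied in neurons, was at 105 to 181 CPM (median 145 CPM) in neurons and 1996, 1959.9, 3244, 2769 and 2244 CPM in astrocytes (log2 difference -4.09, SE 0.21, adjusted p = 7.80e-10), an astrocyte excess in every library. Plpp3, Rgs20 and Appl2 had log2 differences of -6.28, -5.58 and -4.69.

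Genes that span long stretches of the genome were more often higher in neurons. Measured from the first to the last base of the gene in RefSeq, the median span was 51.6 kb for genes higher in neurons, 29.6 kb for genes lower in neurons and 28 kb for genes not called. Among 502 genes over 300 kb, 45.4% were higher in neurons and 19.5% lower, with a median log2 difference of 1.0. Among genes under 10 kb, 15.1% were higher and 24.8% lower. The share of counts from introns is not recorded in gene-level counts. By class, 306 of 962 long non-coding RNA genes were higher in neurons and 174 lower (median 0.50), against 1594 and 2322 of 9882 protein-coding genes (median -0.26). These shares describe the tested genes, which are not independent of each other, and carry no test.

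**Figure D4:**
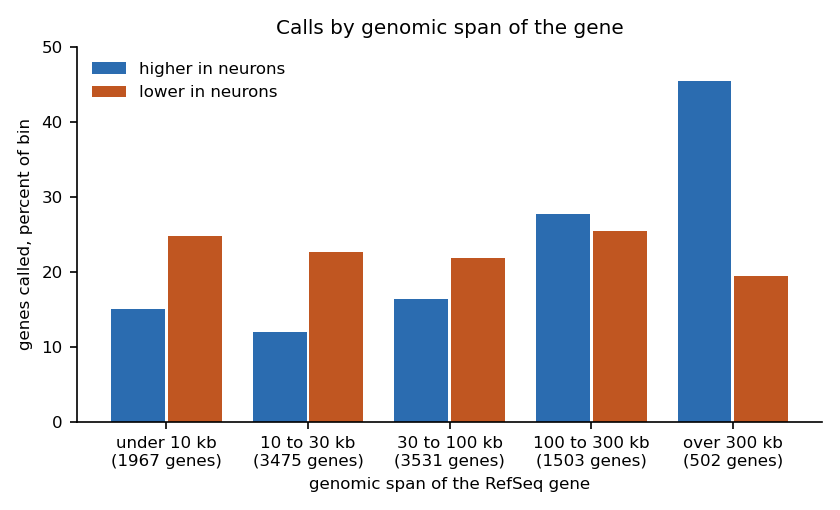
Percent of tested genes called higher (neurons) or lower (astrocytes) in 5 bins of gene span in kb, P301S libraries. The share higher in neurons is 12% for genes of 10 to 30 kb and 45.4% for genes over 300 kb, while the share lower stays between 19.5% and 25.4%.

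The same contrast in non-Tg littermates was set beside the P301S contrast in a fit of all 25 libraries, over 14197 genes. The non-Tg contrast called 3097 genes (21.8%) higher in neurons and 3562 (25.1%) lower. In the same fit the P301S contrast called 3298 higher and 4122 lower. Of these genes, 2447 were higher in both genotypes, 79.0% of the non-Tg and 74.2% of the P301S calls, and 2946 were lower in both, 82.7% and 71.5%; 14 were called in opposite directions. Across genes the log2 differences correlated with Pearson's r of 0.875 and Spearman's rho of 0.845, a description in which genes are not independent replicates. In the non-Tg mice Scn1a had a log2 difference of 6.09 and Grin1 one of 5.1. There Aqp4 had a log2 difference of -7.37 and Meg3 one of 5.54. Of 10 pan-reactive genes tested in this fit, 9 were lower in non-Tg neurons and 1 was higher (median -3.36, against -4.84 in P301S). Of 14 interferon-response genes 13 were lower (-2.46 against -3.79), and of 10 MHC class I genes 8 were (-2.22 against -3.68). Neither list had a member higher. The test of the difference between genotypes, given next, called 1, 1 and 0 members of these 3 lists in that order.

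The difference of the 2 contrasts itself was called for 56 genes (0.394%), 27 higher and 29 lower in P301S, with 2106 genes at an unadjusted p under 0.05. Serpina3n had a mean CPM of 13.8 ± 4.01 in P301S neurons, 317 ± 72.2 in P301S astrocytes, 14.3 ± 4.57 in non-Tg neurons and 30.5 ± 22.6 in non-Tg astrocytes (SD; n = 6, 5, 8 and 6). The 2 neuron means lay close together and the 2 astrocyte means far apart, and the log2 difference of contrasts was -3.43 (SE 0.49, adjusted p = 7.39e-04). Ssc5d, a secreted scavenger receptor, had 13.8 ± 4.8 in P301S neurons, 80.6 ± 37.6 in P301S astrocytes, 11 ± 5.29 in non-Tg neurons and 5.76 ± 3.25 in non-Tg astrocytes, a log2 difference of contrasts of -3.51 (SE 0.61, adjusted p = 0.00711). Sbno2, a transcriptional regulator induced by STAT3, had 6.42 ± 2.01 in P301S neurons, 75.5 ± 37.3 in P301S astrocytes, 5.73 ± 3.53 in non-Tg neurons and 6.56 ± 4.18 in non-Tg astrocytes, a log2 difference of contrasts of -3.4 (SE 0.64, adjusted p = 0.0159). Each of these 3 had its highest mean in P301S astrocytes. Synpo, synaptopodin of the spine apparatus, had 25.8 ± 6.54 in P301S neurons, 25.4 ± 15.5 in P301S astrocytes, 23.7 ± 13.8 in non-Tg neurons and 1.39 ± 1.33 in non-Tg astrocytes, a log2 difference of contrasts of -4.1 (SE 0.75, adjusted p = 0.0137), which left almost no contrast between cell types in P301S. Pgr, the progesterone receptor, had 384 counts in P301S neurons and 1 in P301S astrocytes, and its mean CPM was 29.5 ± 5.99 in P301S neurons, 0.0748 ± 0.167 in P301S astrocytes, 34.3 ± 9.44 in non-Tg neurons and 3.68 ± 2.1 in non-Tg astrocytes. Ptpn5, a neuronal tyrosine phosphatase, had 33.7 ± 10.2 in P301S neurons, 0.318 ± 0.437 in P301S astrocytes, 23.5 ± 10.2 in non-Tg neurons and 7.76 ± 10.5 in non-Tg astrocytes, a log2 difference of contrasts of 4.73 (SE 0.95, adjusted p = 0.024) that lost its call without P301S neuron library 3 (adjusted p = 0.0595). With voom and sample weights neither Pgr (3.73, adjusted p = 0.403) nor Ptpn5 (3.36, adjusted p = 0.54) was called. The number of calls fell to between 9 and 17 without any 1 of the P301S neuron libraries. It rose to between 98 and 522 without any 1 of the P301S astrocyte libraries. Leaving out any of the 11 P301S libraries moved it by more than 1.5 times, and the cause was not tested. The calls of Serpina3n, Ssc5d, Synpo and Sbno2 held in each of those 11 fits. DESeq2 called 425 and voom with sample weights 10.

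**Figure D5:**
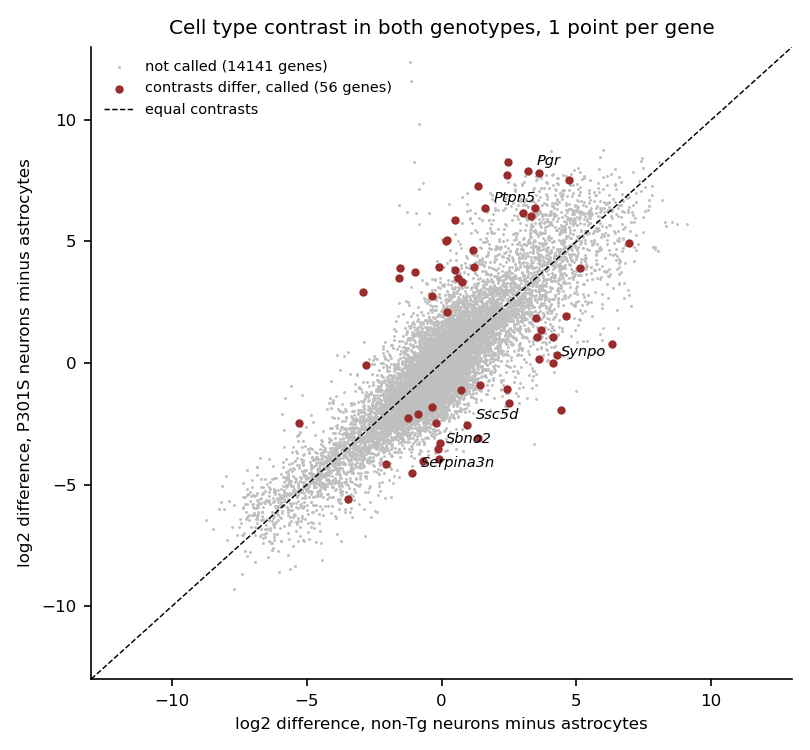
Log2 difference (neurons minus astrocytes) in P301S mice against that in non-Tg littermates for 14197 genes, with the 56 genes whose contrasts differed in red and a dashed line of equal contrasts. Most genes lie along the line, Serpina3n, Ssc5d and Sbno2 are lower on the P301S axis, and Pgr and Ptpn5 are higher.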

How the data were processed

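RNA of sorted brain cells was sequenced, and the values used are the counts per gene that the authors deposited for each library, beside a deposited normalized RPKM column that served only to recover the authors' size factors. The submitters' processing notes name the aligner GSNAP and the build GRCm38; the aligner's version and the strand used in counting are not given there. Of 36528 gene identifiers, 31049 matched a symbol in the RefSeq table (GRCm38.p6), and unmatched identifiers held 3.10% of the counts of the 11 libraries.

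Counts were tested with edgeR 4.0.16 (R 4.3.3): filterByExpr, TMM factors, robust quasi-likelihood F tests, and Benjamini-Hochberg adjustment over all genes tested, with a threshold of 0.05. The main fit held the 11 P301S libraries, and the difference between genotypes came from a fit of all 25. CPM are counts per 1000000 after TMM scaling, the standard error is the log2 difference divided by the square root of F, and intervals cover counting error only. Per-library measures were compared by exact 2-sided permutation tests, adjusted over 11. The fitting was tested on simulated data.

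Groups, members and gene lists were chosen with earlier results of these data known. Named genes were each list's lead genes, up to 2 more called members per direction with the smallest p, called members against their list, the 8 genes per direction outside the lists with the smallest p (log2 difference of at least 2, at least 50 CPM) and the 6 per direction for the difference between genotypes. Some of those genes are left out for length or are not reported here. Genes given as the remaining or uncalled members of a list, or for overlap, were chosen after their values were seen, as were the pancreatic genes. Alternatives were other scaling factors, DESeq2 1.42.0, voom with sample weights (limma 3.58.1), other filters, thinning to 1544959 counts, a sex-marker covariate, fits without Malat1 and mitochondrial genes, all 25 libraries in 1 fit, and leaving out libraries. Promoter windows came from the RefSeq table, without those on chromosome 18.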

Additional observations from a re-analysis of the deposited data

Results flagged for a closer look

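A library was marked where its gap to the nearest other library of its group was large against the range of the group (Dixon's ratio at the 95% level). Of 338 groups of values looked at, 49 held such a library, where chance gives about 1 in 20. Neuron library 1 had a mitochondrial share of 2.43% against 1.12 to 1.47% in the other neuron libraries and a microglial marker sum of 428 CPM against 84.8 to 137 CPM. Astrocyte library 4 had 51.6% of counts in its 10 most abundant genes against 35.3 to 37.8%, and astrocyte library 5 an ependymal marker sum of 106 CPM against 15 to 37.3 CPM.

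The values that follow are CPM, with those of the other libraries of the same group in parentheses. Neuron library 1 stood apart from the rest of its group in the CPM of Scn1a at 199 (162 to 170.5), Kcnj10 at 22.3 (2.07 to 9.43), Aldh1l1 at 6.53 (0 to 2.43), Glul at 27.2 (14.5 to 18.4), Apoe at 25.6 (5.47 to 8.67) and Mertk at 71.3 (13.7 to 22.2). The same library stood apart from the rest of its group in that of Osmr at 4.35 (0.414 to 1.84), B2m at 25 (5.02 to 8.57), Tap2 at 4.35 (0.347 to 0.461), Ndufa4 at 22.3 (9.0 to 12.8), mt-Co1 at 2255 (912 to 1360.0), Ctsb at 51.7 (25.7 to 34) and Ctsd at 120.3 (16.1 to 39.5). The same library stood apart from the rest of its group in that of Neat1 at 13.6 (2.9 to 6.91), Itgam at 70.8 (11.2 to 24.3) and Csf1r at 51.2 (8.67 to 16.1). Neuron library 2 stood apart from the rest of its group in the CPM of Npas3 at 5.47 (11.1 to 12.8). Neuron library 3 stood apart from the rest of its group in the CPM of Malat1 at 270100.0 (175700.0 to 208300.0), Meg3 at 43900.0 (23870.0 to 30200.0) and Ryr3 at 897 (617 to 715). Neuron library 4 stood apart from the rest of its group in the CPM of Tubb2b at 5.55 (1.24 to 2.72), App at 142 (94.2 to 102) and Aplp1 at 122 (72.9 to 89.9). Neuron library 5 stood apart from the rest of its group in the CPM of Dusp1 at 14.1 (6.84 to 9.25). Neuron library 6 stood apart from the rest of its group in the CPM of Cacna1b at 206 (241 to 259), Ptgs2 at 92.7 (28.1 to 39.2) and Pdia4 at 19.4 (7.08 to 10.5). Astrocyte library 1 stood apart from the rest of its group in the CPM of Gad2 at 10.9 (0 to 0.368), C1ql2 at 1.39 (0 in each) and Trank1 at 20.6 (3.31 to 7.46). Astrocyte library 2 stood apart from the rest of its group in the CPM of Dusp1 at 109 (11.7 to 27). Astrocyte library 3 stood apart from the rest of its group in the CPM of Dlx1 at 2.18 (0 to 0.557), Grm3 at 262 (48.1 to 96.4), Fdft1 at 203 (18.9 to 65.7) and Gli3 at 281 (217 to 230.4). Astrocyte library 4 stood apart from the rest of its group in the CPM of Abca1 at 518 (381 to 405), Hmgcs1 at 95.6 (24.7 to 32.3), B2m at 319.7 (41.8 to 120.1), Malat1 at 717300.0 (277200.0 to 355400.0), Gabbr1 at 555 (216 to 289) and Slc1a1 at 45.2 (0 to 7.24). Astrocyte library 5 stood apart from the rest of its group in the CPM of Robo2 at 96.1 (29.2 to 43.1), Sox9 at 372 (205 to 217), Ugt1a1 at 58.9 (5.29 to 13.9) and Pfkfb3 at 194 (54.7 to 84.5). The part of these libraries in the results was not tested beyond leaving each of them out.

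The contrast of neurons against astrocytes differed between P301S and non-Tg mice, by the test of the difference itself in edgeR, for the named genes Serpina3n (-3.43, adjusted p = 0.000739), Ssc5d (-3.51, adjusted p = 0.00711), Sbno2 (-3.4, adjusted p = 0.0159), Synpo (-4.1, adjusted p = 0.0137), Pgr (4.67, adjusted p = 0.0058) and Ptpn5 (4.73, adjusted p = 0.024), as log2 differences of the 2 contrasts. The value for Pgr rests on 1 count in P301S astrocytes and depends on the prior count of the fit. With voom neither Pgr (adjusted p = 0.403) nor Ptpn5 (adjusted p = 0.54) was called. The number of such calls fell without any 1 P301S neuron library and rose without any 1 P301S astrocyte library, as given above.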

How the results depend on the processing

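No paired analysis was possible because the labels tie no neuron library to an astrocyte library and carry no replicate numbers. The 4925 calls (2221 higher, 2704 lower in neurons, 4714 of them at least 2-fold) became 7451 with no filter (3703 higher, 7308 at least 2-fold) and 7420 in the fit of all 25 libraries (4122 lower), and total counts only gave 1740 lower. Leaving out each neuron library in turn gave 4108 to 4336 calls and each astrocyte library in turn 5037 to 5635. Leaving out neuron libraries 2 and 6 together, chosen after seeing the data, gave 3743. The 56 genes whose contrast differed between genotypes (27 higher, 29 lower) became 425 with DESeq2 (213 higher, 212 lower) and 10 with voom (1 higher, 9 lower). They became 12 without the 2 non-Tg neurons whose identifiers fall in another range (4 higher, 8 lower), and 18 were lower with no filter. Leaving out each P301S library gave 9 to 522 calls, 4 to 345 higher and 5 to 177 lower; the cause was not tested.

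The difference in summed microglial markers (-5.72 CPM) reversed to 8.52 without neuron library 2, 6.22 without neuron library 5, 10.1 without neuron library 6 and 19.3 without astrocyte library 3, within a range of -58.5 to 19.3. Leaving out libraries moved the difference in Malat1 share between -8.31 and -4.61 percentage points (adjusted p up to 0.0698), that of the 10 most abundant genes between -9.10 and -4.86 (up to 0.0655), and that of summed ependymal markers between -36.2 and -13.5 CPM (up to 0.0599). Genes that had not passed changed sign as follows: with total counts only, Gsk3b to 0.0724 and Hspa8 to 0.14; with voom, Hspa8 to 0.33; without astrocyte library 3, Hspa8 to 0.33, and without astrocyte libraries 3 and 4, to 0.00816; Itgam to -0.11 and Csf1r to -0.25 without neuron library 1. Over the fits that each left out 1 library Hspa8, Itgam and Csf1r ranged from -0.61 to 0.33, -0.11 to 0.59 and -0.25 to 0.64 in that order. Of the other gene values of this comparison, 3672 kept direction and side of the threshold, 28 passed it and 67 fell short of it. Without neuron libraries 2 and 6 together the calls of Slc17a7, Prnp, Dusp1, Robo2, Hmgcs1, Msmo1, Dhcr7, Iigp1, Ndufa4, Uqcrc2 and Slc1a1 were lost (adjusted p from 0.055 to 0.122). Of the list counts 1075 stayed within 1.5 times and 65 did not. Counts at or under the floor of 3 limit what can be said of low genes, and the smallest unadjusted p of the permutation tests was 0.00433.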

Other observations

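Transcripts of pancreatic islet and exocrine genes were present in 5 of the 25 libraries, a pattern noticed in the data and not part of any comparison. Ins1, which encodes insulin, had 1929 counts in P301S neuron library 2, 1515 in P301S neuron library 6, 1534 in non-Tg astrocyte library 1, 949 in non-Tg astrocyte library 4, 1190 in non-Tg neuron library 1 and 0 in the other 20. The ratio of Ins1 to Ins2, the second mouse insulin gene, was 1.78, 1.62, 1.75, 1.62 and 1.63 in those 5 libraries. By a rule set after seeing the data (at least 10 counts in each of the 5 libraries and over 5 times the highest CPM of the other 20), 11 genes shared this pattern. Beside the insulins they held Gcg (glucagon), Iapp (amylin), the islet genes G6pc2 and Slc30a8, and the exocrine genes Pnliprp1, Reg1, Ctrb1 and Cpb1. These genes took 0.203, 0.147, 0.0876, 0.0826 and 0.122% of the counts of the 5 libraries.

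Every one of the 11 P301S libraries held counts of both Xist, from the inactive X chromosome of females (67 to 272 counts), and of Y-linked genes: Ddx3y (77 to 222), Eif2s3y (55 to 289), Kdm5d (79 to 347) and Uty (40 to 244). The labels give no sex, and whether libraries pooled mice of both sexes was not tested.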
